A study of Mus musculus with 12 samples.

Results

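GATOR1 and GATOR2 are protein complexes at the surface of the lysosome that control mTORC1, the kinase complex that couples amino acid supply to protein synthesis. The 8 genes described here are the rows of the deposited table named Depdc5, Nprl2 and Nprl3, which encode the 3 subunits of GATOR1, and Mios, Wdr24, Wdr59, Seh1l and Sec13, which encode the 5 subunits of GATOR2. They were picked by gene name among the 53351 genes of the table, by a rule that uses no measured value. The members and the lists used below were chosen with earlier results of these data known. All 8 passed the filter on low values that left 20240 genes for testing.

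The series measured mRNA in primary neural progenitor cells of wild type mouse cerebral cortex at E13.5, grown overnight in medium with bFGF and EGF. Every culture was treated for 2 h either with DMSO, the solvent control, or with 250 nM Torin1, which inhibits the kinase mTOR. All groups also received cycloheximide at 100 ug/ml for 5 min, which holds ribosomes on their mRNA. Total mRNA was taken from 10% of each lysate, and polysome mRNA from those fractions of a sucrose gradient in which an mRNA carried more than 3 ribosomes. The 4 groups are thus total DMSO, total Torin1, polysome DMSO and polysome Torin1, each with 3 libraries that the labels call biological replicates. The sources used here do not say how many embryos or litters stand behind a replicate, and the p-values measure the spread between these libraries.

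GATOR1 acts on the Rag GTPases, small proteins that bring mTORC1 to the lysosome. It stimulates GTP hydrolysis by RagA and RagB and so turns mTORC1 off when amino acids are scarce. GATOR2 counteracts GATOR1 when amino acids are present, and the amino acid sensors of the Sestrin and CASTOR families bind to GATOR2. The KICSTOR complex holds GATOR1 at the lysosome. Loss of a GATOR1 subunit in the human brain is known from focal epilepsy and cortical malformation.

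mTORC1 is best known in translation for its control of TOP mRNAs, whose first base is a C followed by a run of pyrimidines, as in the mRNAs of ribosomal proteins. For that reason the letters around the annotated RefSeq starts of the GATOR genes are shown, on the strand of the gene, as 15 bases before the start and 15 from it, with the first 5 transcribed bases in capitals (GRCm38.p6).
Depdc5, chr5:32863706-32863735, plus strand: ggactcggggcggagCCTCGggagcggcgc
Nprl2, chr9:107542194-107542223, plus strand: ggcaaccacgcccccTGAGTcgccctgcgc
Nprl3, chr11:32267693-32267722, minus strand: gcgcagtcgcctgtcCGGGCatgcgcgggg
Mios, chr6:8209212-8209241, plus strand: ggtgccgggcgagggGAAGGcggggctcgc
Wdr59, chr8:111522093-111522122, minus strand: gtcaagtgaaagggaGAAACtgggcgtggc
Sec13, chr6:113740667-113740696, minus strand: gcgttttgagctgccACGTCcgaggccgtg
Sequences for Wdr24 and Seh1l are not shown. None of these 6 starts is a C followed by 4 bases that are each C or T, searched on the strand of the gene only. Of all 32851 annotated starts 2.51% have these letters at the start, and of 74 starts of genes with ribosomal protein symbols 20.3% have them. Within 10 bases on either side of the start, 1 of the 6 has them, Nprl2, against 30.7% of all starts and 56.8% of the ribosomal protein starts. Each window covers 1 annotated start of its gene. For Depdc5, Nprl2, Mios and Wdr59 that start lies inside the gene span given further below, and the outer end of the span was not searched. An annotated start can differ from the one used in these cells, and the letters are a description of the window only.

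Values are scaled abundances in parts-per-million (ppm). That they are per transcript length is inferred from the low values of pseudogenes set against their genomic span, and is not stated by the submitters. Every comparison of levels between genes below rests on this inference. The deposited values are not reads and their depth is unknown, so no counting interval is given, and column totals ran from 14341674 to 19201406. Libraries of 1 group correlated with r (Pearson, across 9193 expressed genes, which are no independent replicates) of 0.975 to 0.992. The library total Torin1 replicate 2 stood apart in Rn7sk, a small nuclear RNA, at 2090 ppm against 38.6 to 183 ppm in the other 5 total libraries, and each result on total Torin1 is also given without it where that changes a call. The labelled cell type was checked with 9 neural progenitor markers, all above 0 in every group, whose sum was 3770 to 3860 ppm in total DMSO, while 5 neuronal markers summed to 2410 to 2430 ppm and 4 erythroid markers to 1010 to 1080 ppm in the same libraries. Since these are bulk samples, fewer cells of a type and less RNA per cell cannot be told apart.

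The 8 subunit mRNAs spanned a wide range of levels. In total DMSO mRNA Sec13, the propeller protein that GATOR2 shares with the nuclear pore and with the COPII coat of secretory vesicles, was the most abundant at 122, 122 and 119 ppm. Depdc5, the GATOR1 subunit that contacts the Rag GTPases and binds Nprl2, followed at 39.7, 38.0 and 44.3 ppm. Seh1l, which GATOR2 shares with the nuclear pore Y complex, stood at 33.0, 30.9 and 35.2 ppm. These 3 genes did not overlap with each other or with any other member in that group.

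The next 4 genes lay close together. In total DMSO mRNA Mios, a propeller subunit of GATOR2, averaged 18.2 ± 0.69 ppm (SD, n = 3), and Nprl3, the partner of Nprl2, averaged 16.3 ± 1.83 ppm. Nprl2, which carries the catalytic arginine of GATOR1, averaged 14.9 ± 0.98 ppm and Wdr24, a propeller subunit that GATOR2 needs to act on mTORC1, averaged 14.6 ± 1.06 ppm. The libraries of Nprl3, Nprl2 and Wdr24 overlapped, so their order is not given by these data, while all 3 libraries of Mios lay just above those of Nprl3. Wdr59, another GATOR2 propeller subunit, was the lowest in every library, at 8.55, 8.69 and 7.95 ppm in total DMSO. Expressed genes are those with a mean log2 value of at least 3 in ppm, which held for 9193 of the 20240 genes tested. In total DMSO 87.0% of them had a lower mean than Sec13. Wdr59, at a mean of 7.34 ppm over the 12 libraries, fell below this cut, so no place among the expressed genes is given for it.

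The subunits of a complex therefore did not share a common mRNA level. Within GATOR1 the mean ratio of Depdc5 to Nprl2 was 2.75 ± 0.41 in total DMSO mRNA and that of Nprl3 to Nprl2 was 1.09 ± 0.06 (SD, n = 3). The ratio of Sec13 to Seh1l was 3.68 ± 0.28. Both of these serve other complexes, and the 3 subunits found in GATOR2 alone (Mios, Wdr24 and Wdr59) summed to 41.2 ± 1.01 ppm, against 71.8 ± 0.78 ppm for the 3 subunits of GATOR1. The same places at the ends of the order were seen in all 4 groups, with Sec13 first, Depdc5 and Seh1l next and Wdr59 last. Sec13 was 14.4 times the level of Wdr59 in total DMSO, 12.5 times in total Torin1, 28.3 times in polysome DMSO and 24.1 times in polysome Torin1. Depdc5 and Seh1l overlapped in both polysome groups.

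**Figure D1:**
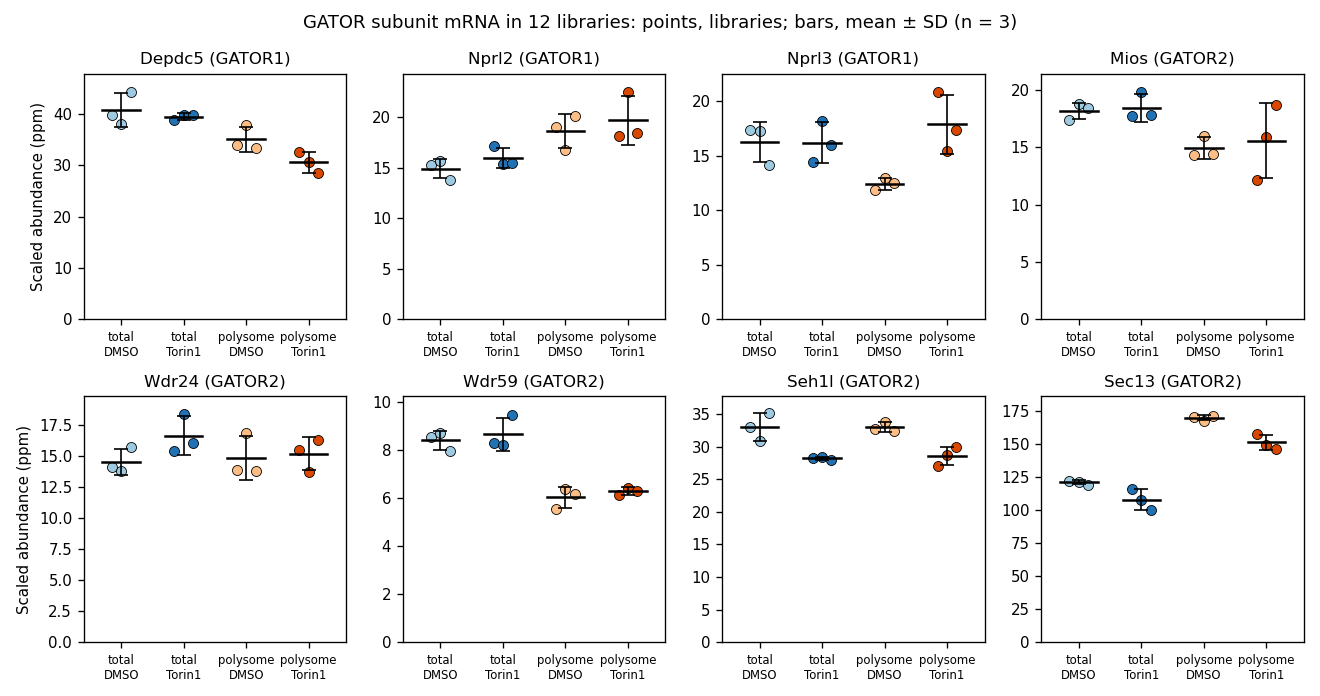
Scaled abundance in ppm (vertical axes, linear from 0, a different range for each gene) of the 8 GATOR subunit mRNAs in total and polysome mRNA of DMSO and Torin1 cells. Points are libraries and bars the mean ± SD (n = 3), and Nprl3 in polysome mRNA rises from 11.9 to 12.9 ppm in DMSO to 15.5 to 20.8 ppm in Torin1.

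The comparison of Torin1 with DMSO in total mRNA asked whether 2 h of mTOR inhibition changed the amount of each transcript. None of the 8 GATOR genes passed the test (limma, adjusted p under 0.05), against 7.48% of all genes tested. Only 2 had an unadjusted p under 0.05, Seh1l and Sec13. Without total Torin1 replicate 2, and without each of the other 5 libraries compared, the count of GATOR genes past the test was again 0. The median log2 fold over the 8 genes was 0.01, and over all genes tested it was -0.002.

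Seh1l went from 33.0, 30.9 and 35.2 ppm in DMSO to 28.3, 28.5 and 28.0 ppm in Torin1. All 3 Torin1 libraries lay below all 3 DMSO libraries, and the log2 fold was -0.22 ± 0.07 (SE, limma adjusted p = 0.0691). Sec13 went from 122, 122 and 119 ppm to 116, 108 and 100 ppm, again with no overlap. Its log2 fold was -0.17 ± 0.06 (adjusted p = 0.136). Groups that do not overlap in this direction were found for 17.9% of all genes, and for 2 of the 8 here.

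The 3 GATOR1 genes had small differences in total mRNA, with groups that overlapped. For Depdc5 the 95% interval of the log2 fold ran from -0.22 to 0.13, for Nprl2 from -0.13 to 0.33 and for Nprl3 from -0.28 to 0.27. Of the GATOR2 propeller genes, Mios had an interval from -0.27 to 0.31 and Wdr59 from -0.19 to 0.27. Wdr24, at 14.1, 13.8 and 15.8 ppm in DMSO and 15.5, 18.4 and 16.1 ppm in Torin1, had a log2 fold of 0.19 ± 0.11 (limma, adjusted p = 0.36). A change of 1.43-fold, the size seen for Nprl3 in polysome mRNA, lies outside all of these intervals.

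The same comparison in polysome mRNA asked how the mRNAs bound by more than 3 ribosomes differed. Nprl3 rose, the single GATOR gene of 8 to pass the test, against 10.3% of all genes in either direction and 4.55% in the upward direction. Its levels were 11.9, 12.9 and 12.5 ppm in polysome DMSO and 20.8, 15.5 and 17.4 ppm in polysome Torin1. Every Torin1 library lay above every DMSO library, which held for 11.6% of all genes. The spread was wider after Torin1, with an SD of 2.72 ppm against 0.54 ppm. The log2 fold was 0.51 ± 0.13, or 1.43-fold with a 95% interval of 1.18 to 1.73 (limma, adjusted p = 0.0248). In total mRNA the same gene was at 17.4, 17.3 and 14.1 ppm in DMSO and 14.4, 18.2 and 16.0 ppm in Torin1, with a log2 fold of -0.005 ± 0.13.

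The Nprl3 call rested on few libraries. Leaving out polysome DMSO replicate 1 gave a log2 fold of 0.48 and an adjusted p of 0.086 (limma), leaving out polysome DMSO replicate 3 gave 0.51 and 0.0718, and leaving out polysome Torin1 replicate 1, the highest library, gave 0.40 and 0.0613. The fold stayed positive in each case, and the call held without each of the other 3 libraries. It was also lost without the abundance trend of the variances (adjusted p = 0.0513) and with the polysome libraries fitted alone (adjusted p = 0.0754). Marker sums of several cell types moved with the same contrast. The 3 intermediate progenitor markers, all above 0 in every group, summed to 107 to 110 ppm in polysome DMSO and 149 to 180 ppm in polysome Torin1. The 3 endothelial markers, also all above 0, summed to 13.0 to 16.8 ppm in polysome DMSO and 18.6 to 22.2 ppm in polysome Torin1. The 4 mural and meningeal markers summed to 14.3 to 16.0 ppm and 20.6 to 25.1 ppm in the same groups. The same 3 sums were also higher after Torin1 in total mRNA, at 123 to 128 and 184 to 192 ppm, 8.52 to 9.20 and 12.4 to 13.6 ppm, and 14.4 to 21.1 and 28.0 to 35.5 ppm. The sum of the 3 markers of the oligodendrocyte lineage was also higher without overlap. It went from 49.9 to 53.3 ppm to 54.4 to 65.2 ppm in polysome and from 46.8 to 48.5 ppm to 57.8 to 62.7 ppm in total mRNA. Most of this sum was Olig2, at 44.7 to 63.0 ppm over all libraries. Pdgfra was at 1.27 to 4.15 ppm and Sox10 at 0.129 to 0.49 ppm, so the sum does not show a rise of each marker. In total mRNA the sums of the 4 interneuron markers (156 to 166 and 183 to 194 ppm), the 9 neural progenitor markers (3770 to 3860 and 4280 to 4400 ppm), the 5 neuronal markers (2410 to 2430 and 2560 to 2630 ppm) and the 4 erythroid markers (1010 to 1080 and 1100 to 1270 ppm) were higher without overlap. The 4 microglial markers summed to at most 8.90 ppm in any library. The part of these cell types in the Nprl3 result was not tested.

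The other members did not pass the test in polysome mRNA. Depdc5 was at 34.0, 37.9 and 33.2 ppm in DMSO and 32.6, 30.6 and 28.5 ppm in Torin1, with a log2 fold of -0.20 ± 0.08 (limma, adjusted p = 0.15). Seh1l was at 32.8, 33.8 and 32.4 ppm in DMSO and 27.1, 28.8 and 29.9 ppm in Torin1, a log2 fold of -0.21 ± 0.07 (adjusted p = 0.0752). Leaving out polysome Torin1 replicate 3 brought Seh1l past the threshold, at -0.24 and an adjusted p of 0.036, and the count of GATOR genes past it to 2. Sec13 was at 171, 168 and 172 ppm in DMSO and 158, 150 and 147 ppm in Torin1, a log2 fold of -0.17 ± 0.06 (adjusted p = 0.107).

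All 3 of these genes had Torin1 libraries wholly below the DMSO libraries, which held for 12.7% of all genes. For Seh1l and Sec13 the size of the difference was close to that in total mRNA, while Depdc5 in total mRNA had a log2 fold of -0.04 ± 0.08. Their direction in polysome mRNA depended on the scaling. Scaling to the column total moved the median log2 fold of all genes from 0 to 0.23, and the folds of Depdc5, Seh1l and Sec13 became 0.06, 0.05 and 0.09, while Nprl3 stayed higher in Torin1 and past the test. Of all genes called under it 89.8% were higher, against 44.1% with the main scaling, so the upward background for Nprl3 depends on the scaling. Relative to that median all 3 remained lower.

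Nprl2, Mios, Wdr24 and Wdr59 had overlapping groups in polysome mRNA. Their log2 folds lay between 0.04 for Wdr24 and 0.08 for Nprl2. Mios had the largest coefficient of variation of the 8 in polysome Torin1 mRNA, 21.1%, at 12.1, 15.9 and 18.7 ppm, a range that covered all 3 DMSO libraries. Its 95% interval of -0.24 to 0.33 leaves room for changes in both directions. The median log2 fold over the 8 genes was 0.04, and over all genes it was 0.

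**Figure D2:**
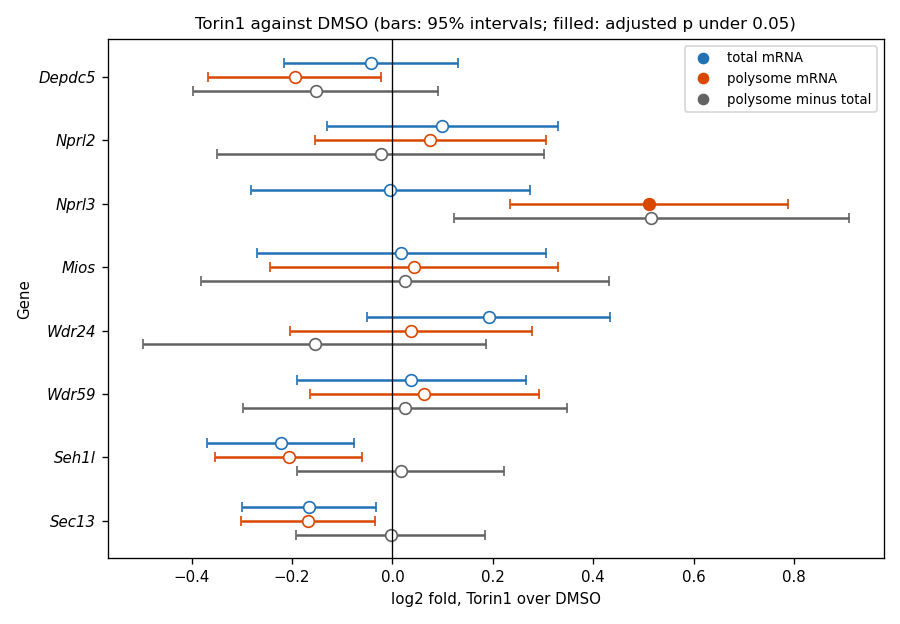
log2 fold of Torin1 over DMSO for each GATOR gene in total mRNA, in polysome mRNA and as the difference of the polysome and total folds (horizontal axis), with 95% intervals. Filled points passed an adjusted p of 0.05, which only Nprl3 in polysome mRNA did, at 0.51.

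Whether the response in polysome mRNA differed from that in total mRNA was tested as an interaction over all 4 groups. None of the 8 genes passed the test (limma), against 0.721% of all genes, and 1 had an unadjusted p under 0.05. That gene was Nprl3, with a difference of 0.52 ± 0.18 in log2 (95% interval 0.12 to 0.91, unadjusted p = 0.0144, adjusted p = 0.606). A rise of Nprl3 that was larger in polysome than in total mRNA was therefore not shown after adjustment over all genes. For Seh1l and Sec13 the interaction was 0.02 ± 0.09 and -0.003 ± 0.09, with intervals from -0.19 to 0.22 and from -0.19 to 0.19.

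Polysome mRNA was next set against total mRNA within each treatment. A positive fold means that an mRNA was higher in polysome than in total mRNA relative to the bulk of genes, by the trimmed-mean scaling, and need not mean a larger share of the library. In DMSO 5 of the 8 GATOR genes passed the test, against 41.2% of all genes. Of these 2 were higher in polysome mRNA (20.7% of all genes) and 3 were lower (20.4%). In Torin1 4 passed, against 39.6% of all genes, with 2 higher (19.8%) and 2 lower (19.8%). In DMSO the groups did not overlap for 2 genes that were higher and 4 that were lower, which held for 26% and 27.4% of all genes. The amount of mRNA on polysomes per cell was not measured. All genes tested include many below the cut for expressed genes, which 9193 of the 20240 passed. The median log2 fold in DMSO was -0.03 over all genes tested and 0.12 over the expressed genes. Shares called among expressed genes alone are not given. With scaling to the column total, which compares shares of the library, 6 GATOR genes were called in DMSO, 0 of them higher. Of the 20240 genes tested 8561 were then called in DMSO, and the share of higher calls among them was 21.6% in place of 50.3%. In Torin1 3 GATOR genes were called under this scaling, 1 of them higher. Of all genes 7398 were called there, 42.9% of them higher in place of 50.1%.

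Of the 8 genes Sec13 had the highest fold of polysome over total mRNA, above 76.4% of all genes tested in DMSO and 77.6% in Torin1. It rose from 122, 122 and 119 ppm in total to 171, 168 and 172 ppm in polysome DMSO mRNA, a log2 fold of 0.49 ± 0.06 (limma, adjusted p = 4.47e-05). In Torin1 it rose from 116, 108 and 100 ppm to 158, 150 and 147 ppm, by 0.49 ± 0.06 again (adjusted p = 5.17e-05). Neither call was lost without any of the 6 libraries compared. Nprl2, the catalytic GATOR1 subunit, rose from 15.3, 15.6 and 13.8 ppm to 19.0, 16.8 and 20.1 ppm in DMSO, with no overlap, at 0.32 ± 0.11 (adjusted p = 0.0291). In Torin1 it rose from 17.1, 15.4 and 15.4 ppm to 18.1, 22.5 and 18.5 ppm, at 0.30 ± 0.11 (adjusted p = 0.0427).

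Wdr59 had the lowest fold of the 8 genes in both treatments. Of all genes tested 28.8% had a lower fold still in DMSO and 29.2% in Torin1. Wdr59 fell from 8.55, 8.69 and 7.95 ppm in total to 5.52, 6.38 and 6.17 ppm in polysome DMSO mRNA, a log2 fold of -0.48 ± 0.10 (limma, adjusted p = 0.00277). In Torin1 it fell from 8.27, 8.20 and 9.45 ppm to 6.14, 6.43 and 6.30 ppm, a log2 fold of -0.45 ± 0.10 (adjusted p = 0.00417). Neither call was lost without any of the 6 libraries compared. Depdc5 was lower in polysome mRNA as well, at -0.22 ± 0.08 in DMSO (adjusted p = 0.0464) and -0.37 ± 0.08 in Torin1 (adjusted p = 0.00258). Its Torin1 libraries were 38.7, 39.8 and 39.7 ppm in total and 32.6, 30.6 and 28.5 ppm in polysome mRNA.

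Nprl3 passed the test in DMSO and not in Torin1. In DMSO it fell from 17.4, 17.3 and 14.1 ppm in total to 11.9, 12.9 and 12.5 ppm in polysome mRNA, at -0.38 ± 0.13 (limma, adjusted p = 0.0311). In Torin1 its groups overlapped, at 0.14 ± 0.13 (adjusted p = 0.442). The difference between these values is the interaction given above, which did not pass after adjustment. The DMSO value and the rise with Torin1 share the 3 polysome DMSO libraries, where Nprl3 was low, and so are not independent of each other.

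The other 3 members, all of GATOR2, did not pass the test in either treatment with the main scaling. Mios was at 17.4, 18.8 and 18.4 ppm in total and 14.4, 16.0 and 14.4 ppm in polysome DMSO mRNA, at -0.29 ± 0.13 (limma, adjusted p = 0.106), with groups that did not overlap. Its fold passed the test in DMSO with the compared groups alone (-0.28, adjusted p = 0.017) and with scaling over expressed genes (-0.40, 0.0295). In Torin1 it passed with the latter (-0.37, 0.0433) and without polysome Torin1 replicate 3 (-0.41, 0.0152). Wdr24 had log2 folds of 0.02 ± 0.11 in DMSO and -0.13 ± 0.11 in Torin1. Seh1l had a log2 fold of 0.00 ± 0.07 in DMSO, with an interval from -0.15 to 0.15, and 0.02 ± 0.07 in Torin1. The mean ratio of Sec13 to Seh1l was 3.68 ± 0.28 in total and 5.16 ± 0.18 in polysome DMSO mRNA (SD, n = 3), with no library overlapping.

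**Figure D3:**
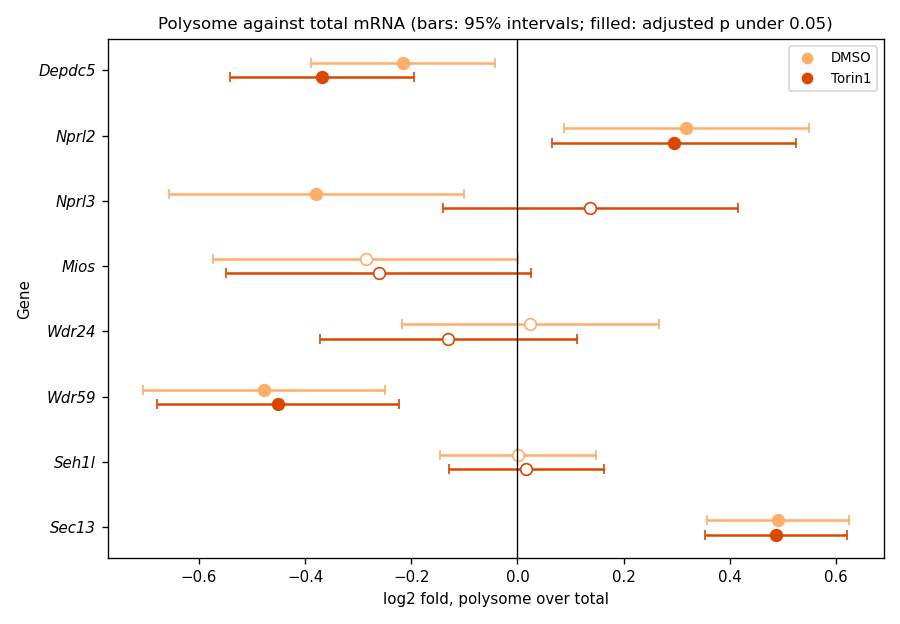
log2 fold of polysome over total mRNA for each GATOR gene in DMSO and in Torin1 (horizontal axis), with 95% intervals, and filled points for an adjusted p under 0.05. Sec13 at 0.49 and Wdr59 at -0.48 lie at the ends in DMSO, and the points of Nprl3 and Wdr24 lie on different sides of 0 in DMSO and Torin1.

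Several of the smaller polysome calls in DMSO hung on single libraries. Depdc5 lost its call without total DMSO replicate 1 (limma adjusted p = 0.0753) or 3 (0.184) and without polysome DMSO replicate 1 (0.134) or 3 (0.158), with log2 folds from -0.27 to -0.16 over the 6 libraries left out. Nprl2 lost its call without the same 4 libraries, with adjusted p-values of 0.0541, 0.111, 0.0788 and 0.109. Nprl3 lost its call without total DMSO replicate 1 (0.104) or 2 (0.1) and without polysome DMSO replicate 1 (0.0949), 2 (0.0507) or 3 (0.0693). In Torin1, Nprl2 lost its call without total Torin1 replicate 2 (0.118), total Torin1 replicate 3 (0.114) or polysome Torin1 replicate 2 (0.16). The protocol draws total and polysome mRNA from 1 lysate. With libraries of the same number and treatment taken as 1 culture (replicate block), Depdc5 (adjusted p = 0.106), Nprl2 (0.0722) and Nprl3 (0.0778) were not called in DMSO, nor Nprl2 in Torin1 (0.0947), while Sec13 and Wdr59 were called in both treatments.

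The choice of scaling also bears on this comparison. Scaling to the column total moved the median polysome over total log2 fold of all genes from -0.03 to -0.37 in DMSO and to -0.11 in Torin1. Under it Nprl2 in DMSO turned to -0.06 (limma adjusted p = 0.749), and Sec13, at 0.11, lost its call in DMSO (0.326), as did Nprl2 in Torin1 (0.237). Mios (-0.66, 0.00159), Seh1l (-0.38, 0.00574) and Wdr24 (-0.35, 0.0454) then passed as lower in DMSO. Relative to all genes Sec13 and Nprl2 stayed on the high side and Wdr59, Depdc5 and Nprl3 on the low side in DMSO. With scaling over expressed genes Nprl2 was not called in DMSO (0.203, limma adjusted p = 0.151) or in Torin1 (0.185, 0.195). Its Torin1 call was also lost with scaling to the median of ratios (0.0527) and without the variance trend (0.0643). The same held with the number as a replicate block (0.066) and with the compared groups alone (0.0811).

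Each member also has a place in the annotation, and some share bases with a neighbour. On GRCm38, the assembly of mm10, Depdc5 (ENSMUSG00000037426) lies on chromosome 5 from 32863646 to 32994233, and Nprl2 (ENSMUSG00000010057) on chromosome 9 from 107542177 to 107545706. Nprl3 (ENSMUSG00000020289) lies on chromosome 11 from 32231963 to 32267707. Of the GATOR2 genes, Mios (ENSMUSG00000042447) and Sec13 (ENSMUSG00000030298) are both on chromosome 6, from 8209111 to 8240573 and from 113728052 to 113740681. Wdr24 (ENSMUSG00000025737) is on chromosome 17 from 25823627 to 25828730, Wdr59 (ENSMUSG00000031959) on chromosome 8 from 111448781 to 111522128, and Seh1l (ENSMUSG00000079614) on chromosome 18. The genes differ widely in size, and Depdc5 covers 130588 bases while Nprl2 covers 3530.

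Nprl2 and Nprl3 each overlap a protein-coding gene on the other strand, and the sources used here do not say whether the counting used strand. Nprl2 shares 17 bases at its 5′ end with Cyb561d2, which encodes a cytochrome b561 family protein. Cyb561d2 fell with Torin1, from 15.8, 14.5 and 14.6 ppm to 13.3, 9.42 and 9.84 ppm in total mRNA (log2 fold -0.48 ± 0.13, limma adjusted p = 0.0462) and from 34.6, 33.5 and 34.9 ppm to 26.7, 20.2 and 23.8 ppm in polysome mRNA (-0.55 ± 0.13, adjusted p = 0.0193). Nprl2 itself had log2 folds of 0.10 and 0.08, so these neighbours did not move together. The Cyb561d2 call in total mRNA was lost without 5 of the 6 libraries (all but total Torin1 replicate 1; highest adjusted p = 0.161). In polysome mRNA it was lost without polysome DMSO replicate 1 or 3 or polysome Torin1 replicate 2, up to an adjusted p of 0.07.

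Nprl3 shares 740 bases at its 3′ end with Mpg, which encodes a DNA glycosylase of base excision repair. In polysome mRNA Mpg was at 31.1, 30.1 and 34.6 ppm in DMSO and 33.8, 25.7 and 27.3 ppm in Torin1, a log2 fold of -0.15 ± 0.11 (limma, adjusted p = 0.436). Its groups overlapped, and it did not rise where Nprl3 rose. In total mRNA Mpg had a log2 fold of -0.14 ± 0.11 (adjusted p = 0.522). Seh1l shares bases with 2 long noncoding RNA genes. Gm26910, with 816 shared bases, was tested and stood at 0.71 to 4.46 ppm, far below Seh1l. The other, 4930549G23Rik, shares 19455 bases and has no values here, so its level could not be compared. Depdc5 holds the span of Gm24003, a pseudogene that was not tested.

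**Figure D4:**
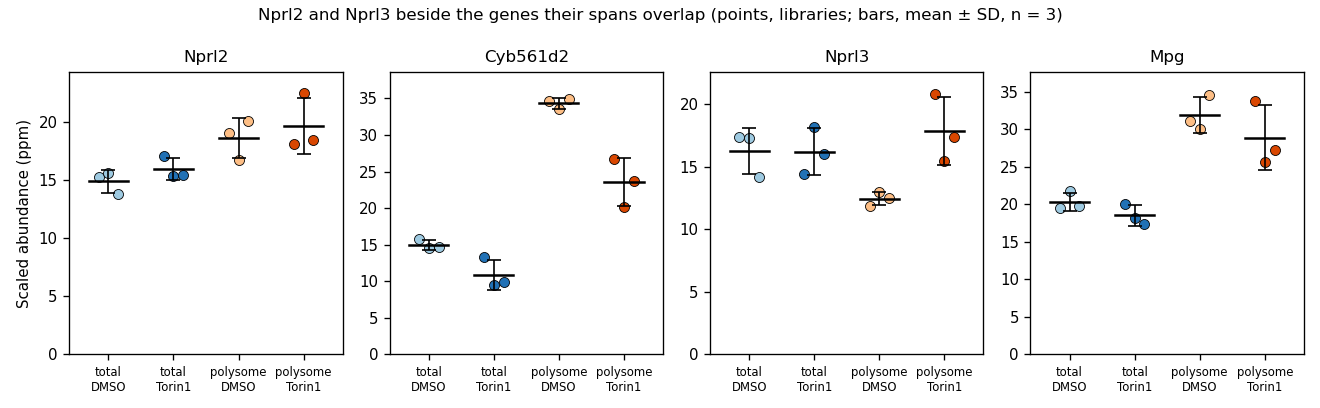
Scaled abundance in ppm (vertical axes, linear from 0) of Nprl2 and Nprl3 beside the genes whose spans they overlap, as libraries (points) and mean ± SD (n = 3). Cyb561d2 is lower after Torin1 in total and polysome mRNA while Nprl2 is not, and Mpg does not follow the polysome rise of Nprl3.

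The other genes of the pathway were read from 5 lists, named by role. Beside the Torin1 counts below, 7.48% of all genes tested were called in total mRNA and 10.3% in polysome mRNA, in either direction. In the interaction 0.721% were called. A count of 1 gene in a list of this size is near these shares for total and polysome mRNA. Around GATOR, 14 genes of KICSTOR, the amino acid sensors and the ubiquitin ligases of the pathway were tested. Of these 14, 1 rose and 1 fell in total mRNA. Sesn2, which encodes a leucine sensor that binds GATOR2, fell from 13.7, 14.8 and 13.0 ppm to 6.03, 6.18 and 5.75 ppm (log2 fold -1.20 ± 0.13, limma adjusted p = 0.00047). Rnf167, a ubiquitin ligase of the lysosome, rose by 0.32 ± 0.08 (adjusted p = 0.0293). In polysome mRNA 2 rose and 1 fell. Sesn2 fell from 12.4, 14.8 and 13.2 ppm to 5.49, 6.03 and 4.27 ppm (-1.36 ± 0.13, adjusted p = 7.68e-05). Itfg2, a KICSTOR subunit, rose by 0.51 ± 0.12 (adjusted p = 0.0215), and Lars, the cytosolic leucyl-tRNA synthetase, rose by 0.32 ± 0.09 (adjusted p = 0.0337).

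Sesn2 kept its call without each of the 6 libraries compared in both kinds of mRNA, while the 3 rises did not. Rnf167 lost its call without each library other than total DMSO replicate 2 (highest adjusted p = 0.119, limma), and Lars without each library other than polysome Torin1 replicate 1 (highest adjusted p = 0.133). Itfg2 lost it without polysome DMSO replicate 1 or 3 or polysome Torin1 replicate 2 (highest adjusted p = 0.0834). The median log2 fold of the list was 0.07 in total and 0.12 in polysome mRNA.

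Downstream of GATOR1 stand the Rag GTPases, the Ragulator complex that anchors them and folliculin with its partners. Of 12 genes 1 fell and none rose in either kind of mRNA. That gene was Rraga, which encodes RagA, the substrate of GATOR1. It fell from 97.1, 101 and 91.5 ppm to 77.9, 72.4 and 73.8 ppm in total mRNA (log2 fold -0.37 ± 0.06, limma adjusted p = 0.00352) and by a log2 fold of -0.29 ± 0.06 in polysome mRNA (adjusted p = 0.00838). Neither call was lost without any 1 of the libraries compared, but the polysome call was lost with scaling to the column total and with the polysome libraries fitted alone. The median log2 fold of the list was -0.03 in total and -0.12 in polysome mRNA.

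Of 9 genes of mTORC1 and its TSC-Rheb arm 1 rose in total mRNA and 2 in polysome mRNA. Deptor, an inhibitor that binds mTOR, rose from 11.8, 9.69 and 10.4 ppm to 19.8, 20.9 and 17.3 ppm in total mRNA (log2 fold 0.86 ± 0.14, limma adjusted p = 0.00481). In polysome mRNA it rose from 2.97, 3.89 and 2.69 ppm to 6.35, 6.87 and 7.44 ppm (1.11 ± 0.14, adjusted p = 0.000576). Tsc1, a subunit of the complex that turns Rheb off, rose in polysome mRNA by 0.32 ± 0.08 (adjusted p = 0.0235), a call lost without polysome DMSO replicate 3 or polysome Torin1 replicate 2 (highest adjusted p = 0.102). Deptor kept its calls without each library compared.

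The complexes that share Sec13 and Seh1l were described in the same way. Of 8 other genes of the nuclear pore Y complex none passed in total mRNA, with 1 unadjusted p under 0.05, and 1 rose in polysome mRNA, Nup133, at 0.53 ± 0.11 (limma, adjusted p = 0.0122). Its call was lost without polysome DMSO replicate 3 (adjusted p = 0.0533). Of 11 other COPII genes tested none passed in total or polysome mRNA, and 1 had an unadjusted p under 0.05 in each. The median log2 fold of the COPII list was -0.08 in total and -0.10 in polysome mRNA. In the interaction no gene of the 5 lists passed the test, with 1 unadjusted p under 0.05 in the list of KICSTOR and sensors, 1 in that of mTORC1 and 1 in that of the Y complex.

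**Figure D5:**
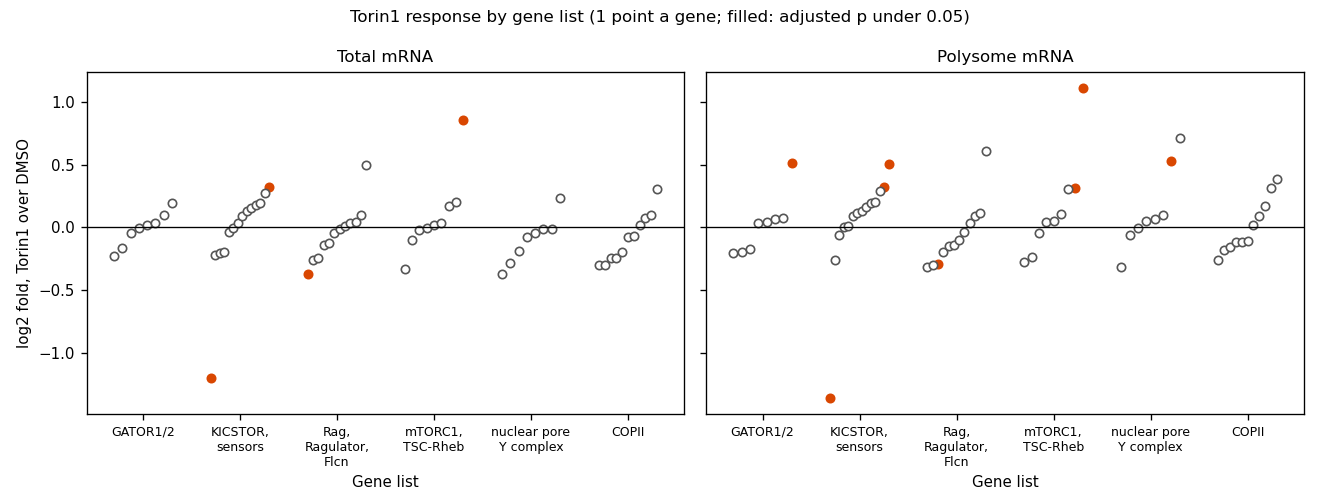
log2 fold of Torin1 over DMSO (vertical axes) for each gene of the GATOR set and of the 5 lists, 1 point a gene in order of its fold, in total mRNA (left) and polysome mRNA (right), filled for an adjusted p under 0.05. The GATOR genes lie between -0.22 and 0.19 in total mRNA, where Sesn2 at -1.20 and Deptor at 0.86 are the farthest from 0.

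Polysome over total folds of these lists were wider than those of the GATOR genes, which ran from -0.48 to 0.49 in DMSO. Beside the counts below, 20.7% of all genes tested were called higher and 20.4% lower in DMSO, and 19.8% higher and 19.8% lower in Torin1. In the list of KICSTOR and sensors 3 of 14 were higher and 5 lower in polysome mRNA in each treatment. Among those lower in DMSO were Sesn3, a Sestrin (-0.86 ± 0.13), Rnf152, a ubiquitin ligase of RagA (-0.76 ± 0.15), and Lars (-0.73 ± 0.09). Among those lower in Torin1 were Rnf152 (-0.79 ± 0.15), Bmt2, the S-adenosylmethionine sensor (-0.72 ± 0.14), and Sesn3 (-0.66 ± 0.13).

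The Ragulator genes were on the other side. In the list of Rag, Ragulator and folliculin genes 8 of 12 were higher and 3 lower in DMSO, and 7 were higher and 2 lower in Torin1. Lamtor5 (1.57 ± 0.14), Lamtor4 (1.47 ± 0.14) and Lamtor2 (1.19 ± 0.10), small Ragulator subunits, led in DMSO, and Fnip1, a folliculin partner, was lower (-1.10 ± 0.20). In Torin1 the leading genes were Lamtor4 (1.52 ± 0.14), Lamtor5 (1.28 ± 0.14) and Lamtor2 (1.27 ± 0.10), with Fnip2, another folliculin partner, lower (-1.03 ± 0.12).

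In the list of mTORC1 and TSC-Rheb 4 of 9 were higher and 4 lower in each treatment. Deptor was lower in DMSO (-1.74 ± 0.15) and in Torin1 (-1.48 ± 0.15). Higher were Akt1s1, the mTORC1 inhibitor PRAS40 (0.79 ± 0.11 and 0.86 ± 0.11), and Rheb, the activating GTPase (0.65 ± 0.06 and 0.68 ± 0.06). Tbc1d7, a subunit of the TSC complex, was higher in DMSO (0.73 ± 0.08), and Rptor, the mTORC1 scaffold, lower in Torin1 (-0.61 ± 0.13).

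The partners of Seh1l and Sec13 in their other complexes went in both directions. Of the 8 Y complex genes 3 were higher and 4 lower in DMSO, and 3 higher and 2 lower in Torin1. Nup43 (1.03 ± 0.15 and 1.08 ± 0.15) and Nup37 (0.97 ± 0.13 and 1.11 ± 0.13) were higher in DMSO and in Torin1. Nup98 was lower in both (-1.04 ± 0.10 and -0.86 ± 0.10), Nup160 in DMSO (-1.17 ± 0.30) and Ahctf1 in Torin1 (-0.65 ± 0.17). Of 11 COPII genes 2 were higher and 3 lower in DMSO, and 2 and 2 in Torin1. Sar1b, a GTPase that starts coat assembly, was higher in both (1.22 ± 0.15 and 1.20 ± 0.15), and Sar1a in Torin1 (0.66 ± 0.09). Sec24a, a cargo adaptor, was lower in both (-1.30 ± 0.16 and -1.16 ± 0.16), as was the scaffold Sec16a (-0.77 ± 0.14 and -0.86 ± 0.14), and Sec24b was lower in DMSO (-0.86 ± 0.22). All polysome over total folds named for list genes had an adjusted p under 0.05 in limma, and none lost it without any 1 of the libraries compared.

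The pattern over the 12 libraries was compared between genes by the root-mean-square distance of log2 values, each centred on the mean of its gene. Among the GATOR genes Depdc5 and Wdr59 were closest, at 0.17, and Wdr59 and Sec13 farthest apart, at 0.50. The 2 expressed genes nearest to Depdc5 were Ppp2r1b (0.06) and Kpnb1 (0.07), out of 8682 compared, against a median distance of 0.34. Nearest to Nprl2 were Klhdc4 (0.08) and Mlycd (0.08), and nearest to Wdr59 were Ank (0.07) and Wdr26 (0.07). Sec13 had the closest matches, Mapkapk2 (0.04) and Txndc5 (0.04). Of the 5 members past the threshold in some comparison, Nprl3 had the most distant nearest genes, Zdhhc24 (0.15) and Rgs8 (0.15), with a median of 0.39 over all genes compared. The libraries share their scaling, so these distances describe likeness only.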

How the data were processed

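Total and polysome mRNA were sequenced in 12 libraries, grouped by their titles into 4 groups of 3. Per the submitters' processing notes the mm10 build, STAR 2.7.9a and HTSeq 0.6.0 were used, in roles the notes do not give. The sources used here do not say how the authors scaled the deposited signal. In every library 100% of the values above 0 and under 1000 steps lay within 0.06 of a whole multiple of a step near 1e-08 of the column total, so a step is no read. The low values fell with the genomic span of pseudogenes, from a 5th percentile of 0.522 ppm at 200 to 400 bases to 0.04 ppm at 2000 to 5000 bases. A signal per length is inferred from this, and transcript length itself was not used.

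Column totals were equalised, and libraries were then scaled by a trimmed mean of log ratios to the geometric mean library, without weights, with 0.3 of ratios and 0.05 of abundances trimmed at either end. The filter asked for a deposited value of 1 or more in 3 libraries. The model, fitted by limma 3.58.1 (R 4.3.3) to log2(value + 1), had 4 group means over all 12 libraries and an abundance trend of the variances. A fold on this scale understates changes of low genes. Benjamini-Hochberg adjustment ran over all genes tested, separately for the 5 comparisons, at a threshold of 0.05. The fit was run on simulated data, drawn independently for each library and without the scaling step. That run does not bear on the scaling or on libraries that share a lysate.

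The members, the lists and the rules were chosen with earlier results of these data known. All 8 members are named in every comparison, and of each list up to 4 genes past the threshold, by the size of the fold. Of each member past the threshold the 2 nearest genes are named, without predicted, Rik, pseudogene or accession names. Kics2 and Sec31b, of the lists, were not tested, and 1 list gene that the rule names is not reported here. Castor1 and Castor2 were found under older symbols. Libraries with the same number did not deviate together (r over 0.1 in 2 of 18 pairs). Alternatives were other scalings, filters, a pseudocount of 0.1, no variance trend, compared groups alone, blocks, and each library or number left out. A scaling over expressed genes was chosen after seeing the data. Gene spans and starts are from RefSeq, where 6 of the 8 members have a start sequence.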

Additional observations from a re-analysis of the deposited data

How the results depend on the processing

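Genes called with Torin1 in total mRNA numbered 1513, but 841 with scaling to the column total, 2679 with the compared groups alone, 713 to 869 without 1 library and 133 to 443 without 1 replicate number. In polysome mRNA 2088 became 3240 with the column total, 746 with the groups alone, 1223 to 2806 without 1 library and 524 to 1018 without 1 number. The 146 interaction calls became 91 with the cultures as a replicate block, 105 to 221 without 1 library and 0 to 112 without 1 number. Polysome over total calls (8333 in DMSO, 8019 in Torin1) stayed within 1.5 times. The share of higher calls moved from 44.2% to 57.2% in total mRNA with scaling over expressed genes, from 44.1% to 57.5% with that scaling and to 89.8% with the column total in polysome mRNA, and with the column total from 2.05% to 21.2% in the interaction and from 50.3% to 21.6% in polysome over total DMSO mRNA.

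GATOR genes called in polysome mRNA went from 1 to 0 without the variance trend and with the groups alone, 0 to 2 without 1 library, and 0 without 1 number. Polysome over total calls in DMSO went from 5 to 3 without the trend, 2 with the cultures as a block, 2 to 4 without 1 library and 1 to 4 without 1 number. In Torin1 4 became 3 to 5 without 1 library and 2 to 3 without 1 number. With the number as a replicate block there were 0, 1, 0, 4 and 3 GATOR calls in the 5 comparisons.

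Of the folds that passed the test, only that of Nprl2 in polysome over total DMSO mRNA turned its sign under any alternative run. With scaling to the column total the log2 folds that turned were Mios in total mRNA (-0.0171), Depdc5 (0.0588), Seh1l (0.0471), Sec13 (0.0853) and Mpg (0.103) in polysome mRNA, and Depdc5 (0.136), Nprl2 (0.265), Wdr24 (0.133) and Sec13 (0.286) in the interaction. Polysome over total it turned Nprl2 (-0.0584), Wdr24 (-0.352) and Seh1l (-0.377) in DMSO and Seh1l (-0.0714) in Torin1. With scaling over expressed genes it was Depdc5 (0.00344) and Nprl3 (0.0411) in total mRNA, Sec13 in the interaction (0.00222), and polysome over total Wdr24 (-0.0908) and Seh1l (-0.115) in DMSO and Seh1l (-0.093) in Torin1. The median of ratios turned Seh1l (-0.00658) in DMSO, and the groups alone Nprl3 in total mRNA (0.0084).

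Without 1 library or 1 number these folds crossed 0, with the ranges given. In total mRNA they were Depdc5 (-0.0978 to 0.0188), Nprl3 (-0.103 to 0.125), Mios (-0.0357 to 0.0488) and Wdr59 (-0.0687 to 0.0976). In polysome mRNA they were Nprl2 (-0.0968 to 0.171), Mios (-0.127 to 0.211) and Wdr24 (-0.0711 to 0.203). In the interaction they were Nprl2 (-0.256 to 0.105), Mios (-0.176 to 0.191), Wdr24 (-0.342 to 0.125), Wdr59 (-0.0593 to 0.147), Seh1l (-0.0851 to 0.0844) and Sec13 (-0.0537 to 0.0518). Polysome over total they were Wdr24 (-0.106 to 0.137) and Seh1l (-0.0628 to 0.0641) in DMSO, and Nprl3 (-0.0535 to 0.326), Wdr24 (-0.205 to 0.0192) and Seh1l (-0.021 to 0.0628) in Torin1. None of these had passed the test. The cause of these changes was not tested.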
